A study of Mus musculus with 12 samples.

Results

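The nuclear genes of the mitochondrial respiratory chain were followed in the liver of mice given an overdose of acetaminophen (APAP), a painkiller whose oxidised metabolite consumes glutathione and binds mitochondrial proteins in hepatocytes. The set was chosen by gene symbol: names starting with Nduf, Uqcr, Cox4 to Cox8 or Atp5, together with Sdha, Sdhb, Sdhc, Sdhd and Cyc1. A gene entered through its brightest probe set that carried 1 symbol only, if that probe set had a mean log2 intensity of at least 5 over the 12 arrays. This gave 88 members among 17052 tested genes. They comprised 34 subunits of complex I, 7 assembly factors of complex I (Ndufaf1 to Ndufaf7), 4 subunits of complex II, 8 of complex III, 18 genes of complex IV and 17 of complex V. Cox6b2 was the 1 gene below the minimum, and 4 further symbols (Cox7c, Ndufa13, Ndufs5-ps and Uqcrc2) were measured only by probe sets shared with another symbol.

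Total RNA of whole liver was measured on Affymetrix Mouse Gene 1.1 ST arrays. All mice were BALB/cByJ females of 2.5 months, either with Pml (wt) or without it (KO), the gene of the PML nuclear body scaffold. Each genotype was sampled untreated and at 2 h and at 6 h after intraperitoneal APAP at 300 mg/kg in warmed PBS. There were 2 arrays in each of the 6 groups, and the labels mention no sham injection for the untreated mice. How the Pml deletion was made, and whether the 2 samples of a group were separate animals, are not stated either. The p-values therefore rest only on how far the 2 arrays of a group lie apart, a spread that may be technical. For each gene that spread was pooled over the 6 groups and drawn toward a value shared by all tested genes.

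The respiratory chain passes electrons from NADH (complex I) and succinate (complex II) through ubiquinone to complex III, cytochrome c and complex IV, where oxygen is reduced. The proton gradient built by complexes I, III and IV drives ATP synthesis in complex V, the ATP synthase. Complex II is encoded in the nucleus alone, while the other complexes combine nuclear subunits with a few from mitochondrial DNA, which were not analysed here. Hepatocytes are rich in mitochondria, and inhibition of respiration is a known early event of APAP toxicity.

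In short, many transcripts of the respiratory chain were lower after APAP. In wt livers at 6 h 51 of 88 members were called lower, where 22.0% of all tested genes were. In KO livers 48 members were called lower at 2 h (20.8% of all genes) and 57 at 6 h (19.1% of all). Leaving out 1 array took these counts as low as 27 (without wt 6 h replicate 1), 22 (without KO 2 h replicate 1) and 27 (without untreated KO replicate 1). Complex IV was nearest to the background, with 5 of 18 members called lower in wt at 6 h and in KO at 2 h. Its 18 members include 7 dim isoforms or paralogues known for other tissues or conditions. Complex II and the complex I subunits had the lowest medians among the 5 complexes at 6 h, and complex IV the median closest to 0, a description of these arrays since the complexes were not tested against each other. Values are log2 intensities of the deposited normalized data. A gene is called where the adjusted p of limma, adjusted over all 17052 genes by the Benjamini-Hochberg method, is under 0.05. Errors after ± are standard errors of the fit, each difference being between means of 2 arrays.

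The Pml probe set lay at 8.18 and 8.46 in untreated wt livers, 7.82 and 7.92 in wt at 2 h and 7.87 and 7.88 in wt at 6 h. In KO livers it lay at 7.10 and 7.97, at 7.11 and 7.50, and at 7.09 and 7.16 in the same order. Within each condition both KO arrays were below both wt arrays, and untreated KO replicate 2 (7.97) was above the 4 treated wt arrays. Over the 3 conditions the KO mean was lower by a log2 difference of -0.70 ± 0.14 (adjusted p = 0.035 in limma). Whether the probes lie in the deleted part is not given, so the signal is no measure of remaining PML. Of the hepatocyte markers, 7 of 8 were tested, and their summed level was at log2 15.53 to 15.86 on all 12 arrays. Neutrophil markers (8 of 8 tested) summed to 10.93 and 11.79 on the 2 wt arrays at 6 h and to 8.73 to 9.45 on the others. Kupffer cell and macrophage markers summed to 12.13 to 12.31 on the untreated arrays and 11.69 to 12.00 on the treated ones. A sum follows its brightest markers, and single markers could go another way. Of these 8 macrophage markers, 6 were called lower and 1 higher in wt at 6 h, and 4 lower and 2 higher in KO at 6 h. Among the 7 hepatocyte markers, 1 was called lower in wt and 2 in KO at 6 h. At that time 22.0% (wt) and 19.1% (KO) of all genes were called lower, and 16.5% and 15.8% higher. In whole liver, fewer cells of a type and less RNA per cell cannot be told apart, and the part of these markers in the results was not tested.

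Promoters of nuclear respiratory genes are known for sites of the factors NRF1, GABP (an ETS factor), YY1 and ERR. RefSeq promoter windows (GRCm38.p6, 250 bases before to 50 after a transcription start) were at hand for 72 of the 88 members, in 77 windows. Letter matches were counted on both strands. The NRF1 letters GCGCATGCG stood in 10 of the 77 windows (13.0%), against 1.75% of all 32851 windows and 2.73% of those of tested genes. The ETS letters CCGGAAG stood in 18 windows (23.4%, against 8.86% of all and 12.9% of those of tested genes). The YY1 letters AAGATGGC stood in 10 (13.0%, against 2.75% and 3.39%) and the ERR letters AAGGTCA in 8 (10.4%, against 4.72% and 3.7%). The ETS letters end in AAG, with which the YY1 and ERR letters begin, so a match of one can overlap a match of another there, and a window could hold several. Of the 37 genes with at least 1 of the 4 motifs, 27 were called lower in wt at 6 h. In KO livers 25 of them were called lower at 2 h and 27 at 6 h. Of the 35 genes with a window and none of them, 17, 17 and 21 were called lower in the same order. Among all 88 members the counts were 51, 48 and 57, and the shares of all tested genes 22.0%, 20.8% and 19.1%. The motifs were unlike in KO at 6 h, with 4 of 10 genes called lower for NRF1 and 16 of 18 for ETS. For YY1 it was 8 of 10 and for ERR 7 of 8. Whether genes with and without a motif differ was not tested. A match is a run of letters, not a measured binding site.

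To show where such letters lie, the 100 bases before the start are printed for 1 gene per complex, each a member called lower at 6 h in both genotypes and chosen after its values were seen. Capitals mark the NRF1 letters in Ndufa11 (chr17:56717662-56717761, plus strand) and the ETS letters, read on either strand, in Sdhd (chr9:50603850-50603949), Uqcr11 (chr10:80406822-80406921) and Cox6b1 (chr7:30626115-30626214), all on the minus strand. In Atp5j (chr16:84834977-84835076, minus strand) they mark the YY1 letters and then the ETS letters, in 1 of its 2 windows. The windows of Sdhd and Uqcr11 also held the ERR and the NRF1 letters, respectively, outside the bases printed.
Ndufa11: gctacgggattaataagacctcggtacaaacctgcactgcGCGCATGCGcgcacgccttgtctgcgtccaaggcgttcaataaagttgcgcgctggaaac
Sdhd: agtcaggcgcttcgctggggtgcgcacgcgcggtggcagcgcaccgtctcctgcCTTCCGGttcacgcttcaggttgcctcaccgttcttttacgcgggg
Uqcr11: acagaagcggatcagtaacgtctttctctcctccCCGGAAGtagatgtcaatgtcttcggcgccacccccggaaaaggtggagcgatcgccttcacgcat
Cox6b1: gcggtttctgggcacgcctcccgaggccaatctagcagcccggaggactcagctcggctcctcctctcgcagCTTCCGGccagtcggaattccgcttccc
Atp5j: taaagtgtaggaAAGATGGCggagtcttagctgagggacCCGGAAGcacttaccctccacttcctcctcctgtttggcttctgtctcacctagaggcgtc
The 5 genes differed in size and time of their falls. At 6 h the log2 difference in KO livers was -0.73 for Ndufa11, -0.62 for Sdhd, -1.08 for Uqcr11, -0.62 for Cox6b1 and -0.41 for Atp5j. In wt livers it was -0.53, -0.66, -0.45, -0.35 and -0.51 in the same order.

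Over all 88 members, few calls were made in wt livers at 2 h. The median log2 difference was -0.11, against 0.02 over all tested genes. The test called 1 member higher (6.53% of all tested genes were called higher) and 3 lower (6.17% of all). For 59 of 88 members both arrays at 2 h were nonetheless below both untreated arrays, compared with 28.8% of all tested genes. At 6 h the wt median was -0.42 (-25.2% on the linear scale), against -0.05 over all genes. The test called 51 members lower (22.0% of all genes) and 0 higher (16.5% of all), and 1 member, Ndufaf4, was above 0 at an unadjusted p under 0.05. The count called higher was 1 without KO 2 h replicate 1 or 2, wt 6 h replicate 1 or untreated wt replicate 1. The count of 51 fell to 33 and 29 without untreated wt replicates 1 and 2, and to 27 without replicate 1 at 6 h.

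In KO livers at 2 h the median was -0.41, against -0.06 over all genes, with 48 members called lower (20.8% of all) and 0 higher (10.6% of all, and 0 members above 0 at an unadjusted p under 0.05). At 6 h the median was -0.45, against -0.05, with 57 called lower (19.1% of all) and 1 higher (15.8% of all). Both KO responses share the untreated KO arrays. The count at 2 h was 22 without KO 2 h replicate 1, and 23 and 31 when 1 or the other untreated KO array (replicates 1 and 2) was left out. The count at 6 h was 28 without KO 6 h replicate 1. Of the untreated KO arrays, leaving out replicate 1 gave 27 and leaving out replicate 2 gave 41, the latter being the array of highest Pml signal among the KO arrays. Of the 51 members lower in wt at 6 h, 42 (82.4%) were also lower in KO at 6 h, where they made up 73.7% of the calls. There were 35 members lower in wt at 6 h and in KO at both times, and 19 that were called in none of the 4 responses.

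**Figure D1:**
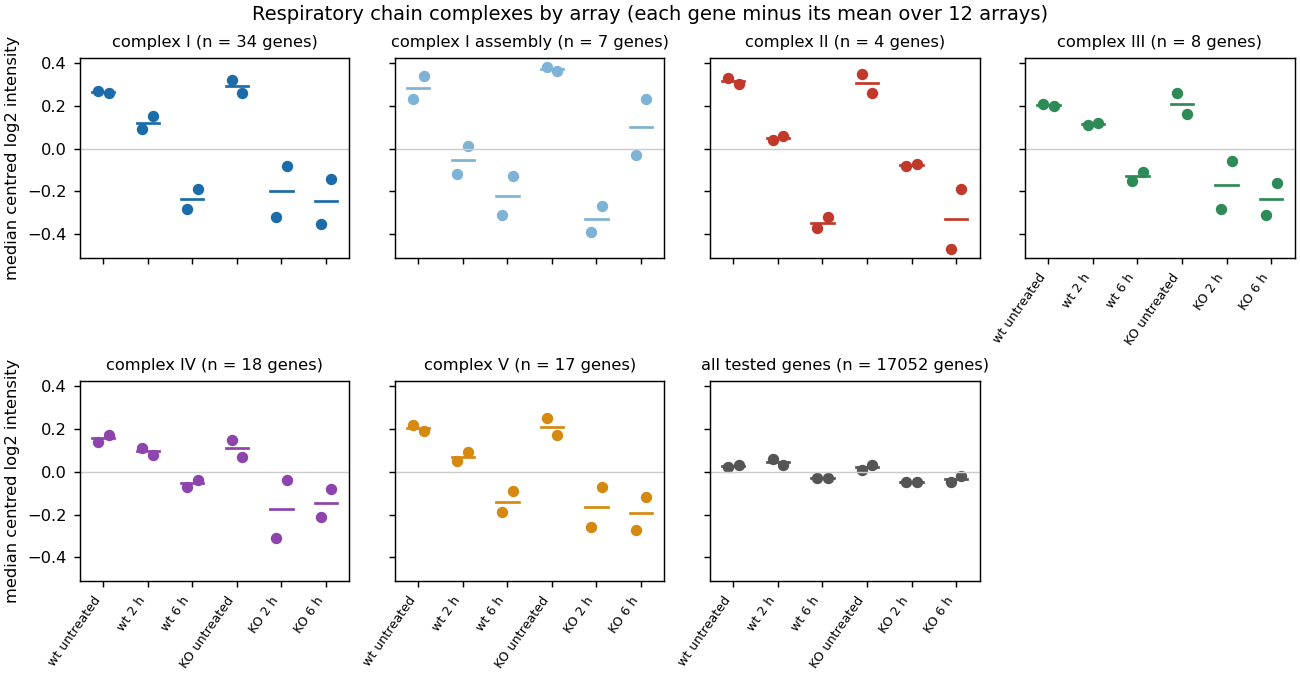
Median log2 intensity of each complex on every array, each gene first centred on its mean over the 12 arrays, for untreated, 2 h and 6 h livers of both genotypes (points are arrays, replicate 1 on the left, and lines the mean of the 2). Complexes I to V lie above 0 in the untreated groups and below 0 at 6 h, and KO 2 h replicate 1 lies below replicate 2, while the median of all 17052 genes stays between -0.05 and 0.06.

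The 2 arrays of a KO group were unlike in these genes. The median of the 88 centred members was -0.30 on KO 2 h replicate 1 and -0.08 on replicate 2, and -0.31 and -0.10 on the 2 KO arrays at 6 h. Values in wt were 0.07 and 0.09 at 2 h and -0.19 and -0.13 at 6 h, and those of the 4 untreated arrays 0.22 to 0.28. KO 2 h replicate 1 held the lowest of the 12 values for 35 members and KO 6 h replicate 1 for 29. On KO 2 h replicate 1 the accessory subunits of complex I were at -0.42 (replicate 2 at -0.09), but the core subunits at -0.06 (replicate 2 at -0.05). The 75 cytosolic ribosomal protein genes, looked at after the values were seen, were also lowest on that array, at -0.30, with replicate 2 at -0.18 and the other arrays at -0.07 to 0.16. The part of this array's difference in the results was not tested beyond leaving it out.

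Complex I, the NADH dehydrogenase, contributed 34 subunits. Of these, 24 were called lower in wt at 6 h (median -0.48), 22 in KO at 2 h (-0.49) and 26 in KO at 6 h (-0.54), and 0 in wt at 2 h (-0.13). Among its 6 measured core subunits, which carry the flavin and the iron-sulfur clusters, 6 fell in wt at 6 h (median -0.55), 2 in KO at 2 h (-0.27) and 4 in KO at 6 h (-0.59). The 28 accessory subunits, which surround the core, gave 18, 20 and 22 called lower, with medians of -0.47, -0.55 and -0.52. Without KO 2 h replicate 1, the count of accessory subunits at 2 h was 9 (complex I in all 11) and their median -0.39, while the core stood at 2 and -0.34. The core count at 2 h was 1 without KO 2 h replicate 2 or either untreated KO array. With untreated KO replicate 1 left out, complex I had 12 calls at 2 h (accessory 11) and 13 at 6 h (accessory 9), and the accessory count at 6 h was 14 when replicate 2 was left out. Leaving out replicate 1 of the 6 h arrays gave 14 in KO (accessory 10) and 15 in wt (accessory 10).

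Ndufs3, a core subunit of the peripheral arm, was at 10.60 and 10.67 in untreated wt, 10.33 and 10.38 at 2 h, then 9.92 and 9.98 at 6 h. In KO livers it was at 10.68 and 10.61 untreated, 10.25 and 10.20 at 2 h, then 9.91 and 10.17 at 6 h. No treated array reached an untreated one, and the fall at 6 h was -0.69 ± 0.11 in wt (adjusted p = 0.00071 in limma) and -0.60 ± 0.11 in KO (adjusted p = 0.0018). Ndufv1, which binds NADH and the flavin, was at 10.64 and 10.62 in untreated wt, 10.45 and 10.59 at 2 h, then 10.10 and 10.17 at 6 h. In KO livers Ndufv1 was at 10.73 and 10.58, then at 10.45 and 10.36, then at 9.97 and 10.10. Its 6 h arrays were below all others in either genotype, by -0.50 ± 0.10 in wt (adjusted p = 0.0035) and -0.62 ± 0.10 in KO (adjusted p = 0.0012). Ndufs8, an iron-sulfur subunit next to the ubiquinone site, had a 2 h difference of -0.32 ± 0.09 in wt (adjusted p = 0.052) and of -0.50 ± 0.09 in KO (adjusted p = 0.0036).

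Ndufa9, an accessory subunit at the junction of the arms of complex I, was at 9.92 and 10.00 in untreated wt, 9.60 and 9.73 at 2 h, then 9.25 and 9.08 at 6 h. In KO livers it was at 9.97 and 10.07 untreated, 9.21 and 9.36 at 2 h, then 9.12 and 9.30 at 6 h. The KO arrays at 2 h thus lay at the level of the 6 h arrays, and those of wt at 2 h lay between. The fall was -0.80 ± 0.11 in wt at 6 h (adjusted p = 0.0004), -0.74 ± 0.11 in KO at 2 h (adjusted p = 0.0013) and -0.81 ± 0.11 in KO at 6 h (adjusted p = 0.00043). Ndufs5, another accessory subunit, was at 8.59 and 8.74 in untreated wt, 8.33 and 8.56 at 2 h, then 7.88 and 7.89 at 6 h. In KO livers Ndufs5 was at 8.78 and 8.67 untreated, 7.44 and 7.81 at 2 h, then 7.85 and 8.06 at 6 h. It had the largest fall of complex I in KO at 2 h, -1.10 ± 0.14 (adjusted p = 0.00065), and its lowest array was KO 2 h replicate 1. A further probe set that Ndufs5 shares with a pseudogene gave -0.88 there and -0.84 at 6 h.

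Ndufc1, a membrane arm subunit, was at 10.37 on both untreated wt arrays, 10.15 and 10.05 at 2 h, then 9.39 and 9.50 at 6 h. In KO livers it was at 10.43 and 10.41 untreated, 9.73 and 9.94 at 2 h, then 9.70 and 10.08 at 6 h. Its fall of -0.92 ± 0.13 was the largest of complex I in wt at 6 h (adjusted p = 0.00042). Ndufa1, a small membrane-spanning subunit, lay far apart on the KO arrays at 2 h, with 6.91 and 7.73 beside 8.36 and 8.26 untreated. Ndufab1 went the other way. It encodes the mitochondrial acyl carrier protein, which also serves fatty acid synthesis in the organelle, and was at 9.67 and 9.68 in untreated wt and 10.12 and 10.14 at 2 h. All other arrays of Ndufab1 lay between 9.60 and 9.84, so the 2 wt arrays at 2 h stood above the rest. This was the 1 member called higher in wt at 2 h, by 0.46 ± 0.10 (adjusted p = 0.015), and the call was lost without any 1 of the 4 arrays compared.

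The 7 assembly factors, which build complex I but are no part of it, had 4 members called lower in wt at 6 h, 5 in KO at 2 h and 3 in KO at 6 h. Their medians were -0.66, -0.74 and -0.43. The count was 2 in wt at 6 h without wt 6 h replicate 1 or untreated wt replicate 2, and 1 in KO at 6 h without replicate 1 of the 6 h or of the untreated KO arrays. Ndufaf6, a factor needed for a stable complex I, was at 7.46 and 7.56 in untreated wt, 6.89 and 6.55 at 2 h, then 6.69 and 7.01 at 6 h. In KO livers Ndufaf6 was at 7.74 and 7.44 untreated, 6.49 and 6.26 at 2 h, then 7.06 and 6.91 at 6 h. It fell in all 4 responses, by -0.79 ± 0.16 (adjusted p = 0.011) and -0.66 ± 0.16 (adjusted p = 0.0089) in wt and by -1.22 ± 0.16 (adjusted p = 0.00073) and -0.61 ± 0.16 (adjusted p = 0.015) in KO. Ndufaf5, a modifying enzyme of a core subunit, was called lower in wt at 2 h alone, by -0.45 ± 0.11 (adjusted p = 0.025). Without wt 2 h replicate 1, untreated wt replicate 1, or replicate 2 of either group, the number of members called lower in wt at 2 h went from 3 to 1, 1, 0 and 0.

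Ndufaf4 differed upwards from untreated in all 4 responses, though it was called in 1. It was at 8.53 and 8.16 in untreated wt, 8.72 and 8.69 at 2 h, then 8.59 and 8.99 at 6 h, and at 8.57 and 8.53, then 9.04 and 8.61, then 9.27 and 9.40 in KO. The 2 KO arrays at 6 h were the highest of the 12, a rise of 0.78 ± 0.18 (adjusted p = 0.0067), and Ndufaf4 was the 1 member called higher there. Ndufaf1 separated the genotypes at 6 h, with 8.34 and 8.35 in wt and 8.79 and 8.91 in KO.

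**Figure D2:**
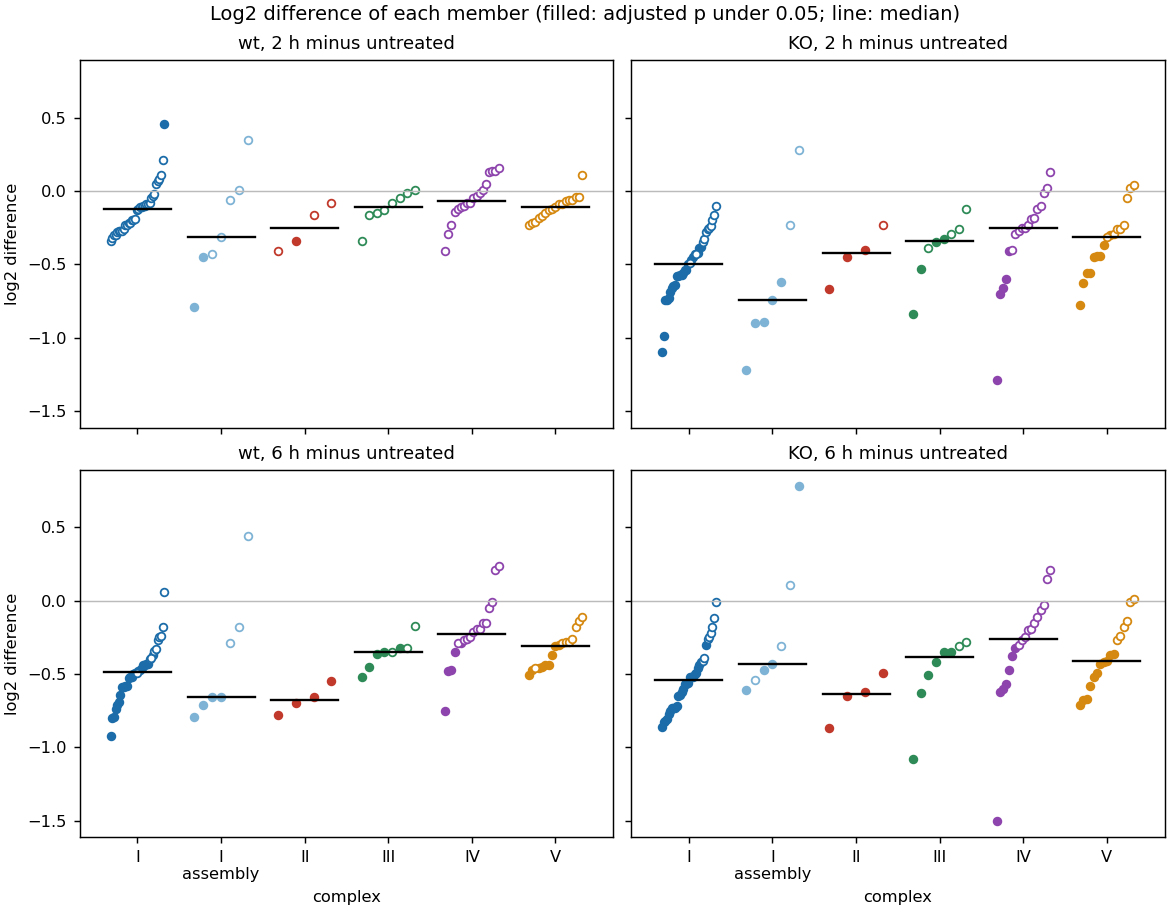
Log2 difference from the untreated group of the same genotype for each of the 88 members, by complex (filled points have an adjusted p under 0.05, and black lines are medians). Nearly all points lie below 0 in KO at 2 h and in either genotype at 6 h, with the single highest point of each 6 h panel, Ndufaf4, at 0.44 and 0.78, and the lowest of the KO panels, Cox7a1, at -1.29 and -1.50.

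Complex II, succinate dehydrogenase, is shared with the citric acid cycle and has 4 subunits, all of which were called lower in wt at 6 h (median -0.68) and in KO at 6 h (median -0.64). These 8 calls were kept without either 6 h array of the genotype concerned. In KO at 2 h 3 fell, with a median of -0.43. That count was 1 without KO 2 h replicate 1 or either untreated KO array. Sdha, the flavoprotein that oxidises succinate, was at 11.76 and 11.69 in untreated wt, 11.39 on both arrays at 2 h, then 11 and 11.05 at 6 h. In KO livers it was at 11.72 and 11.64 untreated, 11.52 and 11.38 at 2 h, then 11.13 and 11.25 at 6 h. Sdha thus fell at 6 h by -0.70 ± 0.10 in wt (adjusted p = 0.00036) and by -0.49 ± 0.10 in KO (adjusted p = 0.0035). At 2 h its difference was -0.34 in wt (adjusted p = 0.049) and -0.23 in KO (adjusted p = 0.096), and the wt call was lost under most alternatives, among them without a filter on low values.

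Sdhb, the iron-sulfur subunit, was at 10.99 and 11.20 in untreated wt, 10.63 and 10.74 at 2 h, then 10.24 and 10.38 at 6 h. In KO livers Sdhb was at 11.25 and 11.09 untreated, 10.54 and 10.46 at 2 h, then 10.19 and 10.43 at 6 h. It had the largest fall of the complex in each response and was called in 3. The falls were -0.78 ± 0.12 in wt at 6 h (adjusted p = 0.00076), -0.67 ± 0.12 in KO at 2 h (adjusted p = 0.0032) and -0.87 ± 0.12 in KO at 6 h (adjusted p = 0.00049). In wt at 2 h the mean of Sdhb went from 11.09 to 10.69, which was not called, and that of Sdha from 11.73 to 11.39. The membrane anchors Sdhc and Sdhd, which hold the heme and the ubiquinone site, fell at 6 h by -0.55 and -0.66 in wt and by -0.65 and -0.62 in KO. Their 2 h differences were -0.16 and -0.08 in wt, neither of them called, and -0.40 and -0.45 in KO, both called.

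In complex III, the cytochrome bc1 complex, 5 of 8 members were called lower in wt at 6 h (median -0.35), 4 in KO at 2 h (-0.34) and 6 in KO at 6 h (-0.39). Without any 1 of the wt arrays compared the wt count was 1. In KO at 2 h it was 2 when untreated KO replicate 1 was left out and 1 when KO 2 h replicate 1 or untreated KO replicate 2 was, and in KO at 6 h it was 3 without replicate 1 of either group. The 3 catalytic or core subunits fell by similar amounts in wt at 6 h, Cyc1 (cytochrome c1) by -0.35 ± 0.10, Uqcrfs1 (the Rieske iron-sulfur protein) by -0.32 ± 0.09 and Uqcrc1 (a core protein) by -0.36 ± 0.11, at adjusted p = 0.019, 0.019 and 0.024 in limma. Uqcr11, a small supernumerary subunit, was at 10.10 and 10.21 in untreated wt, 9.93 and 10.10 at 2 h, then 9.68 and 9.72 at 6 h. In KO livers Uqcr11 was at 10.30 and 10.18 untreated, 9.14 and 9.67 at 2 h, then 9.09 and 9.23 at 6 h. It was lower in KO than in wt on all treated arrays of the same time, with falls of -0.84 ± 0.16 (adjusted p = 0.0034) and -1.08 ± 0.16 (adjusted p = 0.00053) in KO, beside -0.45 ± 0.16 in wt at 6 h (adjusted p = 0.043). The wt call was lost when quantile normalization was applied.

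Complex IV, cytochrome c oxidase, had the medians closest to 0, -0.23 in wt at 6 h, -0.25 in KO at 2 h and -0.26 in KO at 6 h, with 5, 5 and 7 of 18 members called lower. Its nuclear genes come in isoforms, and the 10 genes of general expression (medians -0.26, -0.35 and -0.31) gave 4, 4 and 5 of those calls. In KO at 2 h the median of these 10 was no closer to 0 than those of complexes III and V. At 6 h it remained closer to 0 than those of the other complexes. The count of 5 in wt was 3 without wt 6 h replicate 2 and 1 without any of the other 3 wt arrays compared. In KO at 2 h the count was 3 without replicate 1 of either group and 11 without KO 2 h replicate 2. In KO at 6 h it was 3 without replicate 1 of either group and 4 without untreated KO replicate 2. Cox7a2, the isoform of liver, was at 10.69 and 10.65 in untreated wt, 10.33 and 10.42 at 2 h, then 10.13 and 10.25 at 6 h. In KO livers Cox7a2 was at 10.71 and 10.60 untreated, 9.73 and 10.17 at 2 h, then 9.98 and 10.19 at 6 h. No treated array of Cox7a2 reached the untreated ones, and it fell by -0.48 ± 0.14 in wt at 6 h (adjusted p = 0.021), -0.70 ± 0.14 in KO at 2 h (adjusted p = 0.0049) and -0.57 ± 0.14 in KO at 6 h (adjusted p = 0.011). Cox6b1, which faces the intermembrane space, fell by -0.66 ± 0.11 (adjusted p = 0.0024) and -0.62 ± 0.11 (adjusted p = 0.0023) in KO and by -0.35 ± 0.11 in wt at 6 h (adjusted p = 0.035). The other genes of general expression called in all 3 of these responses were Cox5a and Ndufa4, the latter a subunit long counted with complex I.

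Cox4i1, which regulates the enzyme through nucleotide binding, was called in none of the 4 responses, at 10.90 and 10.86 in untreated wt, 10.61 and 10.63 at 6 h, 10.82 and 10.73 in untreated KO and 10.47 and 10.59 at 6 h. Its differences were -0.26 ± 0.13 in wt at 6 h (adjusted p = 0.13) and -0.25 ± 0.13 in KO at 6 h (adjusted p = 0.16). Cox5b, Cox6a1, Cox6c, Cox8a and the supercomplex factor Cox7a2l were likewise called in none, with 6 h differences between -0.30 and -0.05. Cox6a1 was measured by a further probe set, which gave -0.66 in KO at 2 h where the one used gave -0.40.

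Of the 7 isoforms and paralogues known for other tissues or conditions, Cox6a2, Cox7b2, Cox8b, Cox8c and Ndufa4l2 were called in none of the 4 responses, all at mean log2 levels under 7. Cox7a1, the isoform of heart and skeletal muscle, was the member with the largest falls in KO although its probe set was dim. It was at 6.89 and 7.07 in untreated wt, 6.65 and 6.48 at 2 h, then 6.19 and 6.27 at 6 h, and at 7.39 and 6.85, then 5.87 and 5.79, then 5.49 and 5.75 in KO. The 4 treated KO arrays were the lowest of the 12. The fall was -1.29 ± 0.17 in KO at 2 h (adjusted p = 0.00066), -1.50 ± 0.17 in KO at 6 h (adjusted p = 0.00012) and -0.75 ± 0.17 in wt at 6 h (adjusted p = 0.0052). The summed level of the 5 muscle markers (Myh4, Acta1, Ckm, Mb and Tnnt2) was 8.73 to 9.10 on all arrays, and 0 of the 5 were called lower in these responses. Mb (4.73 to 5.26), Myh4 (5.40 to 5.78) and Ckm (5.75 to 6.40) were dim on all arrays, so a fall of these could hardly show. Whether muscle RNA has a part in the values of Cox7a1 was not tested. Cox4i2, an isoform known from lung and low oxygen, fell in KO at 6 h by -0.47 ± 0.12 (adjusted p = 0.010).

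**Figure D3:**
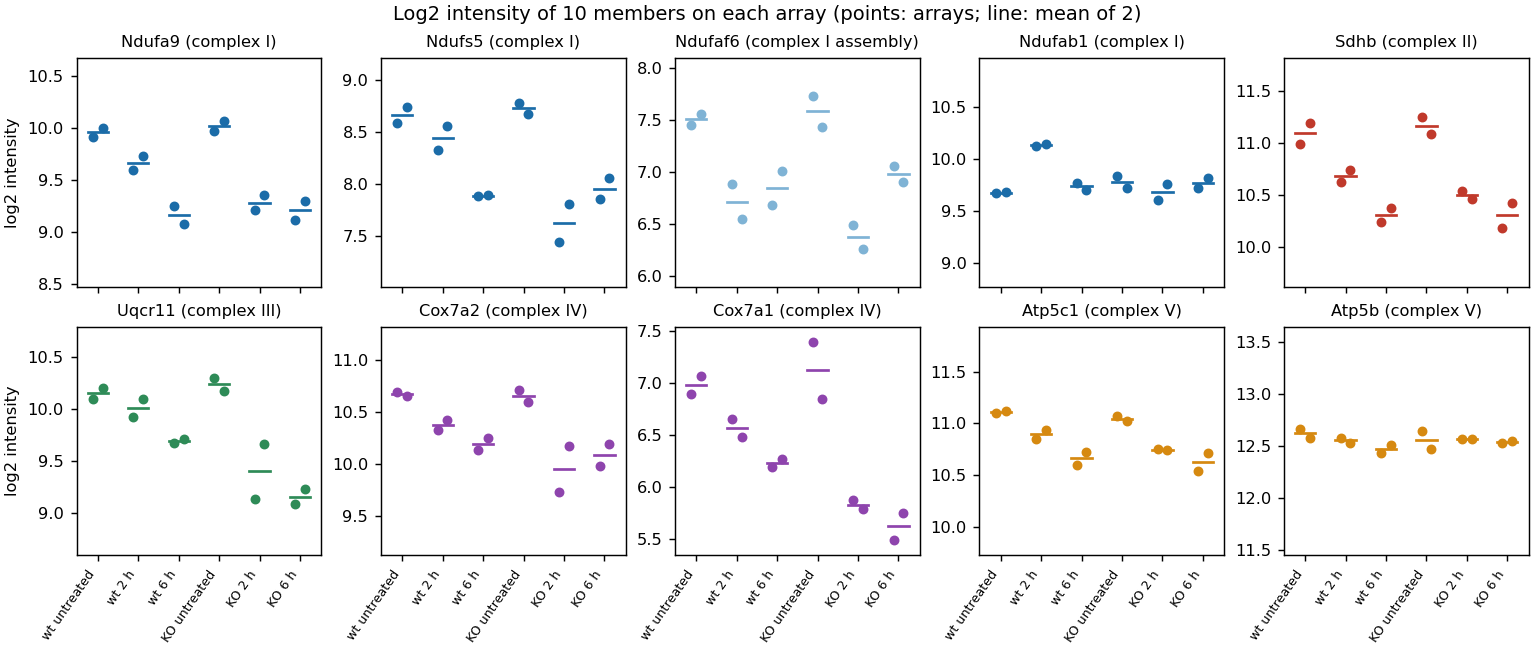
Log2 intensity on each of the 12 arrays for 10 members (points are arrays, lines the mean of 2, each panel spanning 2.2 log2 units). Sdhb and Atp5c1 step down from untreated to 2 h and 6 h in either genotype. Ndufa9 does so in wt, while its KO arrays at 2 h lie at the level of those at 6 h. Cox7a2 lies below its untreated arrays at both times, Ndufab1 is raised in wt at 2 h (10.12 and 10.14), and Atp5b stays between 12.43 and 12.66.

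Complex V is made of the catalytic F1 head, a membrane ring of c subunits, a peripheral stalk that joins them and small membrane subunits. Over its 17 members, 9 were called lower in wt at 6 h (median -0.31), 9 in KO at 2 h (-0.31) and 11 in KO at 6 h (-0.41). The parts differed in their counts. Of the 5 F1 subunits 3, 2 and 2 fell, of the 3 c-ring genes 1, 0 and 0, of the 4 stalk subunits 3, 2 and 4, and of the 5 small membrane subunits 2, 5 and 5. Whether these shares differ from each other was not tested. In KO at 2 h the count of complex V was 2 without KO 2 h replicate 1, and 1 and 4 without untreated KO replicates 1 and 2. In KO at 6 h it was 3 without replicate 1 of either group. In wt at 6 h it was 4 without replicate 1 of either group and 3 without untreated wt replicate 2.

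Atp5b, the catalytic beta subunit, was at 12.66 and 12.58 in untreated wt, 12.58 and 12.53 at 2 h, then 12.43 and 12.51 at 6 h, and at 12.64 and 12.47, then 12.57 on both arrays, then 12.53 and 12.55 in KO. Its differences from untreated lay between -0.14 ± 0.10 (adjusted p = 0.27) and 0.02 ± 0.10 (adjusted p = 0.92). Atp5a1, the alpha subunit, and Atp5d, the delta subunit, differed by -0.05 and 0.04 in KO at 2 h, neither of them called, and Atp5a1 fell in wt at 6 h by -0.31 ± 0.10 (adjusted p = 0.026). Atp5c1, the gamma subunit of the rotor, was at 11.10 and 11.12 in untreated wt, 10.85 and 10.94 at 2 h, then 10.60 and 10.73 at 6 h. In KO livers Atp5c1 was at 11.07 and 11.02 untreated, 10.75 and 10.74 at 2 h, then 10.54 and 10.72 at 6 h. The treated arrays of Atp5c1 were all below the untreated ones, and it fell at 6 h by -0.44 ± 0.10 in wt (adjusted p = 0.0062) and -0.42 ± 0.10 in KO (adjusted p = 0.0098).

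Among the small membrane subunits, Atp5mpl was at 10.05 and 10.03 in untreated wt, 9.89 and 9.97 at 2 h, then 9.74 and 9.76 at 6 h. In KO livers Atp5mpl was at 10.11 and 10.05 untreated, 9.05 and 9.54 at 2 h, then 9.30 and 9.49 at 6 h. Its KO arrays after APAP were all below those of wt, and its KO falls at 2 h and 6 h were -0.78 ± 0.15 (adjusted p = 0.0033) and -0.68 ± 0.15 (adjusted p = 0.0048), against -0.29 ± 0.15 in wt at 6 h (adjusted p = 0.15). Atp5l (subunit g) fell in KO by -0.56 ± 0.12 (adjusted p = 0.0065) and -0.67 ± 0.12 (adjusted p = 0.0018) and in wt at 6 h by -0.44 ± 0.12 (adjusted p = 0.015). In the stalk, Atp5j (coupling factor F6) had the largest wt fall at 6 h, -0.51 ± 0.10 (adjusted p = 0.0031), from 11.39 and 11.35 to 10.81 and 10.91.

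**Figure D4:**
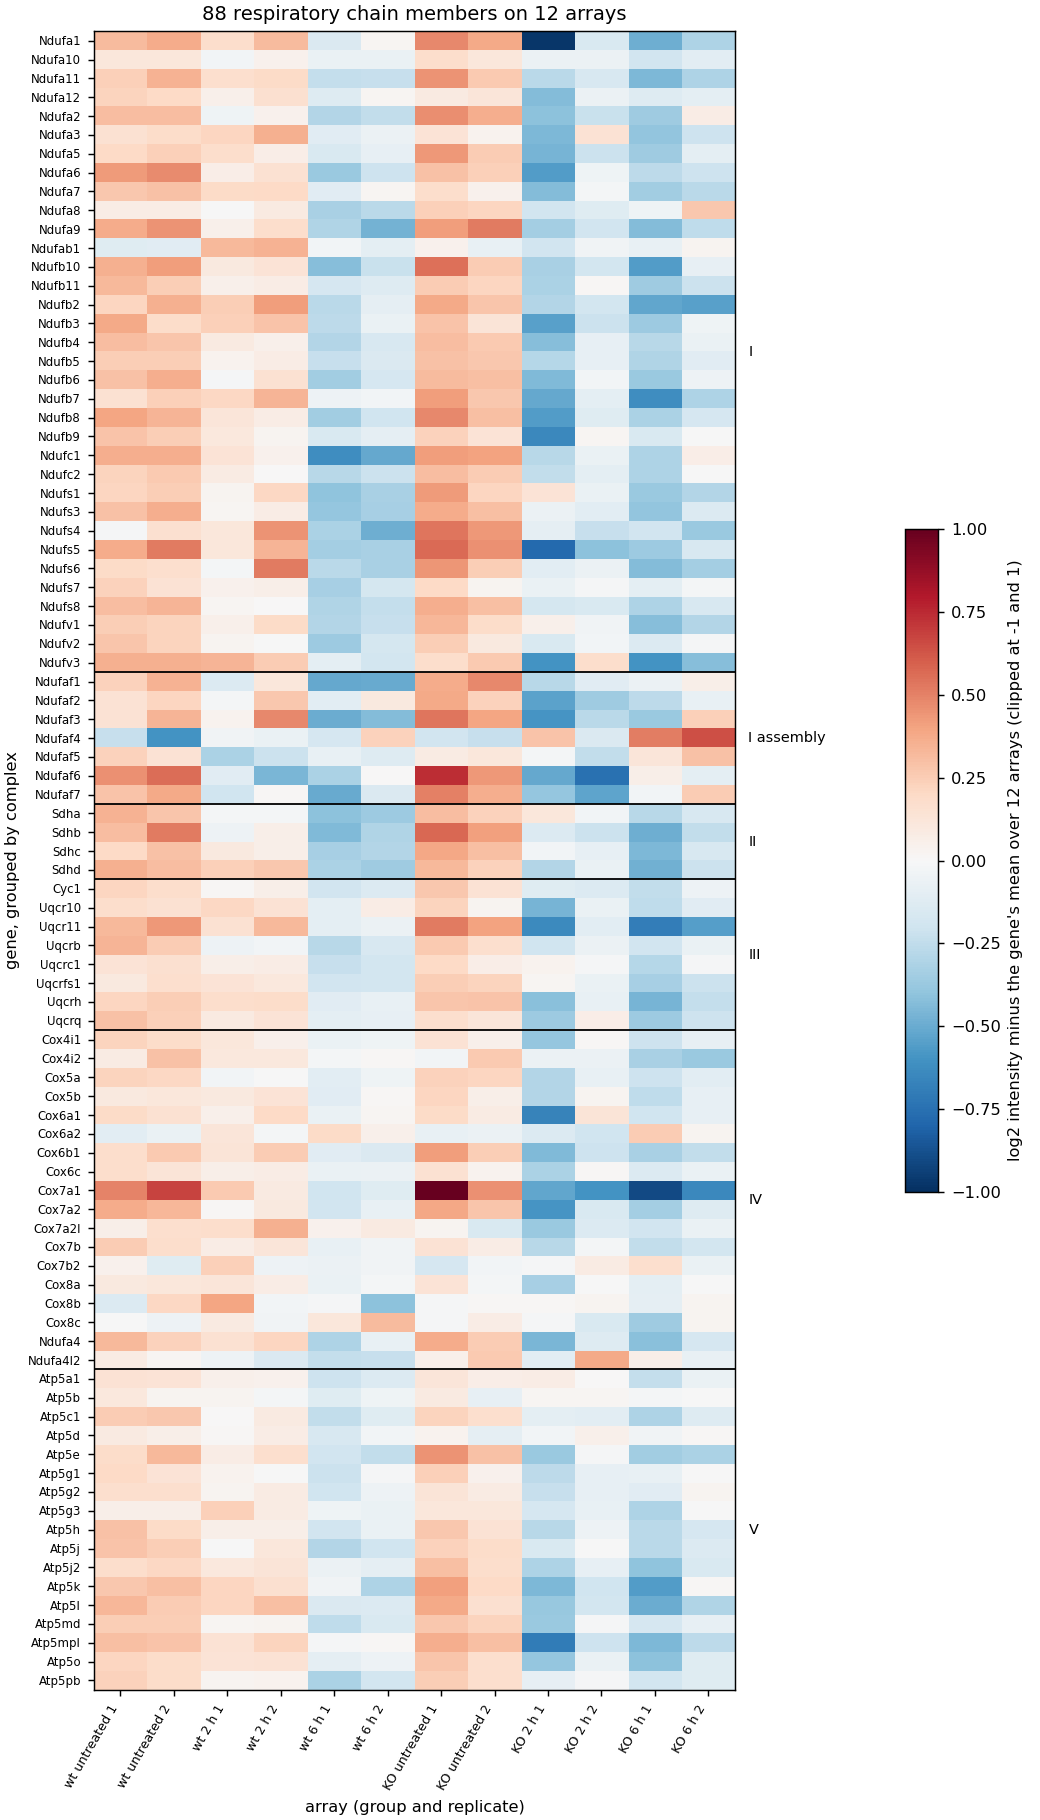
Log2 intensity of the 88 members on the 12 arrays, each gene minus its mean, grouped by complex (red above, blue below, colours clipped at -1 and 1). The untreated columns are mostly red and the KO 2 h and both 6 h groups mostly blue, with KO 2 h replicate 1 lowest for 35 members and KO 6 h replicate 1 for 29.

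Next, the genotypes were compared directly. In untreated livers 0 members were called higher (0.00586% of all genes) and 0 lower (0.0% of all) in KO, with a median difference of 0.02 (-0.03 without untreated KO replicate 1). Limma gave 1 member, Ndufs4, an unadjusted p under 0.05, with 10.86 and 11.03 in wt and 11.40 and 11.30 in KO. At 2 h the median difference KO minus wt was -0.27, against -0.10 over all genes. Without KO 2 h replicate 1 the members' median was -0.16 and without replicate 2 it was -0.38, and over all settings tried the median less that of all genes ran from -0.28 to -0.06. The test called 0 members higher (0.411% of all, and 0 members above 0 at an unadjusted p under 0.05) and 3 lower (1.6% of all). For 74 of 88 members both KO arrays were below both wt arrays, compared with 41.6% of all genes. The 3 were Ndufs5 (-0.82 ± 0.14, adjusted p = 0.028), Ndufb2 (-0.57 ± 0.11, adjusted p = 0.036) and Cox6b1 (-0.52 ± 0.11, adjusted p = 0.0494). Ndufb2, a membrane arm subunit of complex I, was at 8.40 and 8.57 in wt and 7.86 and 7.97 in KO. Cox6b1 was at 11.37 and 11.50 in wt and 10.80 and 11.04 in KO. By class, the accessory subunits of complex I had a median of -0.39 and its core subunits of -0.11, and the small membrane subunits of complex V -0.52 and its F1 subunits -0.03. These gaps were wider on KO 2 h replicate 1 than on replicate 2. In complex I the centred medians of the classes were -0.42 and -0.06 on replicate 1 and -0.09 and -0.05 on replicate 2. In complex V they were -0.38 and -0.03, then -0.18 and 0.0. The count of 3 was 0 without KO 2 h replicate 1 or either wt array at 2 h, 1 without either untreated wt array, and 23 without KO 2 h replicate 2.

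At 6 h the median difference between the genotypes was -0.01, with no settled sign, since it was -0.12 without KO 6 h replicate 2, 0.06 without replicate 1 and 0.02 without wt 6 h replicate 2. The test called 2 members higher in KO (4.09% of all genes), Ndufaf1 by 0.50 ± 0.12 (adjusted p = 0.029) and Ndufa8, an accessory subunit on the outer face of complex I, by 0.41 ± 0.11 (adjusted p = 0.0499). These 2 are below the share of all genes. Ndufa8 was at 9.90 and 9.95 in wt and 10.18 and 10.49 in KO. The number was 0 without wt 6 h replicate 1 or KO 6 h replicate 2, 3 without KO 6 h replicate 1 and 1 without any array of the other 4 groups. Limma called 0 members lower (4.93% of all), while 7 were below 0 at an unadjusted p under 0.05, and it called 1 without either KO array at 2 h or either untreated KO array. As the mean of the 3 conditions 0 members were called higher (0.328% of all, with 3 above 0 at an unadjusted p under 0.05) and 1 lower (1.45% of all), Ndufb2, by -0.30 ± 0.06 (adjusted p = 0.0497). The 1 called lower is near the share of all genes. That number was 11 without KO 2 h replicate 2, and 0 without any other 1 array except untreated KO replicate 1.

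Whether KO livers responded to APAP otherwise than wt livers was tested as a difference of responses, that of KO less that of wt. At 2 h the median was -0.28, against -0.09 over all genes. Limma called 0 members higher (0.0117% of all) and 0 lower (0.0176% of all). There were 24 with an unadjusted p under 0.05, all below 0, and the lowest adjusted p was 0.164, that of Ndufs4 (-0.85 ± 0.19), followed by Ndufs5 (-0.87 ± 0.20, adjusted p = 0.167). Ndufs4, an accessory subunit needed for a stable enzyme, was at 10.98 and 11.32 in wt at 2 h and 10.78 and 10.64 in KO. Untreated, it was at 10.86 and 11.03 in wt and 11.40 and 11.30 in KO. Its KO minus wt difference was thus 0.41 untreated and -0.44 at 2 h, and both enter the difference of responses. Without KO 2 h replicate 2, 1 member was called lower. The larger number of calls in KO than in wt at 2 h is therefore not shown as a difference in response for any single member with all arrays. At 6 h the median was -0.02 and ran from -0.10 to 0.04 over the settings tried, being 0.03 without untreated KO replicate 1, 0.04 without replicate 1 of KO at 6 h and -0.10 without replicate 2. Limma gave 0 called higher (0.088% of all) and 0 lower (0.399% of all). Here 7 members had an unadjusted p under 0.05, with 5 of them below 0, and Cox7a1 (-0.74 ± 0.24) had the lowest adjusted p, 0.176.

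From 2 h to 6 h, averaged over the genotypes, 19 members were lower at 6 h (21.5% of all genes) and 2 higher (19.8% of all), with a median of -0.14 against -0.05 over all genes. Leaving out KO 2 h replicate 2 made it -0.08, and leaving out replicate 1 made it -0.20. The 19 lower members are thus near the share of all genes, and the 2 higher are below it. By complex, the 19 comprised 9 of complex I, the 4 of complex II, 2 of complex III and 4 of complex V, and 0 of complex IV. Ndufv1 (-0.38 ± 0.07, adjusted p = 0.0024), Ndufb2 (-0.40 ± 0.08, adjusted p = 0.0024), Ndufs1 (-0.42 ± 0.08, adjusted p = 0.0025) and Sdhd (-0.38 ± 0.08, adjusted p = 0.0052) led them. Ndufs1, the largest core subunit, was at 9.70 and 9.88 in wt and 9.81 and 9.61 in KO at 2 h, and at 9.27 and 9.35 and at 9.30 and 9.38 at 6 h. The 2 that rose were the assembly factors Ndufaf6 (0.37 ± 0.11, adjusted p = 0.025) and Ndufaf5 (0.25 ± 0.08, adjusted p = 0.028). For Ndufaf6 the mean went from 6.37 to 6.98 in KO but from 6.72 to 6.85 in wt, where the arrays of the 2 times overlapped. At 6 h it was still below its untreated means of 7.51 (wt) and 7.59 (KO). The mean of Ndufaf5 went from 6.53 to 6.87 in KO and from 6.39 to 6.55 in wt. The count of 19 was 11 without KO 6 h replicate 1 and 12 without wt 2 h replicate 2 or wt 6 h replicate 1. That of 2 was 0 without replicate 2 of wt at 6 h or of KO at 2 h and 3 without replicate 1 of the latter, and it was 1 without either wt array at 2 h or KO 6 h replicate 1.

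Other genes of respiration were taken from lists of known function. Of 42 tested assembly factors outside the name rule, 5 were lower in wt at 2 h, 27 in wt at 6 h (median -0.53), 24 in KO at 2 h (-0.38) and 19 in KO at 6 h (-0.32), where 6.17%, 22.0%, 20.8% and 19.1% of all genes were called lower. In wt at 2 h, wt at 6 h, KO at 2 h and KO at 6 h 1, 1, 0 and 3 were higher, against 6.53%, 16.5%, 10.6% and 15.8% of all genes. These shares of all genes are the background of the lists that follow as well. Atpif1, which inhibits ATP hydrolysis by complex V, was at 9.97 and 10.14 in untreated wt, 9.52 and 9.53 at 2 h, then 9.14 and 9.13 at 6 h. In KO livers Atpif1 was at 10.32 and 10.33 untreated, 8.72 and 9.15 at 2 h, then 8.87 and 9.16 at 6 h. It fell by -1.39 ± 0.15 in KO at 2 h (adjusted p = 0.00028) and by -0.92 ± 0.15 in wt at 6 h (adjusted p = 0.0008). Cox16, of complex IV assembly, fell in all 4 responses, by -0.42 and -0.93 in wt and by -0.60 and -0.61 in KO. Uqcc2, of complex III assembly, did so as well, by -0.65 and -0.62 in wt and by -1.07 and -0.44 in KO. Cox19, a copper-related factor, rose by 0.68 ± 0.13 in wt at 2 h (adjusted p = 0.0084).

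Among 17 tested genes of mobile carriers and coenzyme Q synthesis, 1 was lower in wt at 2 h and 7 in each of the other 3 responses, while 2, 1, 2 and 0 were higher in wt at 2 h, wt at 6 h, KO at 2 h and KO at 6 h. Coq8a, an atypical kinase of coenzyme Q synthesis, had the largest falls of the pathway lists. It was at 11.70 and 11.64 in untreated wt, 10.08 and 10.24 at 2 h, then 9.54 and 9.59 at 6 h, and at 11.38 and 11.44, then 9.91 and 9.39, then 8.74 and 9.25 in KO. All treated arrays of Coq8a lay over 1 log2 unit below the untreated ones, and it fell by -1.51 ± 0.19 (adjusted p = 0.00078) and -2.11 ± 0.19 (adjusted p = 2.9e-05) in wt and by -1.76 ± 0.19 (adjusted p = 0.00028) and -2.41 ± 0.19 (adjusted p = 1.7e-05) in KO. Coq10b, a coenzyme Q binding protein, rose by 1.31 ± 0.27 and 1.58 ± 0.27 in wt and by 1.40 ± 0.27 in KO at 2 h. In KO at 6 h its difference was 0.02 ± 0.27, on arrays that lay apart at 8.64 and 7.65. Coq10b was lower there than in wt (9.25 and 9.34) by -1.15 ± 0.27 (adjusted p = 0.031 in limma). Cycs, cytochrome c itself, was called in none of the 4 responses and lay between 12.14 and 12.42 on all arrays.

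Of 17 tested genes of the citric acid cycle and pyruvate entry, 0 were lower in wt at 2 h, 7 in wt at 6 h (22.0% of all genes), 1 in KO at 2 h (20.8% of all) and 6 in KO at 6 h (19.1% of all). In the same order 3, 2, 2 and 0 were higher, against 6.53%, 16.5%, 10.6% and 15.8% of all genes. The 1 lower in KO at 2 h and the 2 higher in wt at 6 h are thus below the shares of all genes. Sucla2, a subunit of succinyl-CoA synthetase, fell at 6 h by -0.66 in wt and -0.65 in KO. Pdk4, which shuts pyruvate dehydrogenase, rose by 2.67 ± 0.51 in wt at 2 h (adjusted p = 0.0077) and by 2.81 ± 0.51 in KO at 2 h (adjusted p = 0.0029). Its KO arrays at 2 h lay far apart at 12.43 and 10.90, and its untreated wt arrays lay at 9.42 and 10.29. Citrate synthase (Cs) was called in none of the 4 responses, with 0.43, -0.03, 0.26 and 0.25 in wt at 2 h, wt at 6 h, KO at 2 h and KO at 6 h. Of 15 tested mitochondrial antioxidant and exchanger genes, 1, 7, 5 and 4 were lower in the same order, among them Sod2 and Vdac1 in 3 responses each, while the phosphate and ADP/ATP carriers Slc25a3 and Slc25a5 were called in none.

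Of 20 tested regulators of respiratory genes, 3 were higher in wt at 2 h, 7 in wt at 6 h, 7 in KO at 2 h and 6 in KO at 6 h, against 6.53%, 16.5%, 10.6% and 15.8% of all genes. In the same order 0, 4, 2 and 6 were lower, against 6.17%, 22.0%, 20.8% and 19.1%. The 4 lower in wt at 6 h are near the share of all genes, and the 2 lower in KO at 2 h below it. Nrf1, the factor behind the NRF1 letters above, was at 7.61 and 7.30 in untreated wt, 7.76 and 7.77 at 2 h, then 8.29 and 8.39 at 6 h. In KO livers Nrf1 was at 7.39 and 7.43 untreated, 7.95 and 7.81 at 2 h, then 8.66 and 8.49 at 6 h. Its treated arrays lay above all untreated ones, with rises at 6 h of 0.88 ± 0.12 in wt (adjusted p = 0.00031) and 1.16 ± 0.12 in KO (adjusted p = 8.1e-05). Gabpb1, a GABP subunit, rose in all 4 responses, by 0.49 and 0.88 in wt and by 0.66 and 1.0 in KO.

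Sirt3, the mitochondrial deacetylase, was at 9.87 and 10.06 in untreated wt, 9.71 and 9.73 at 2 h, then 8.87 and 8.81 at 6 h, and at 9.74 and 9.77, then 9.47 and 9.40, then 8.71 and 8.70 in KO. It fell at 6 h by -1.12 ± 0.10 in wt (adjusted p = 2.6e-05) and -1.05 ± 0.10 in KO (adjusted p = 4.4e-05), and all 4 arrays at 6 h were below the others. Esrrg, an estrogen-related receptor, fell in wt at 6 h by -0.72 ± 0.21 (adjusted p = 0.019) and in KO at 2 h and 6 h by -0.61 ± 0.21 (adjusted p = 0.045) and -1.36 ± 0.21 (adjusted p = 0.00066). Ppargc1a, the coactivator PGC-1 alpha, was called in none of the 4 responses, with 0.85 ± 0.37 in KO at 2 h (adjusted p = 0.11) and -0.81 ± 0.37 in KO at 6 h (adjusted p = 0.12), and its 2 KO arrays at 6 h lay apart at 8.82 and 7.67.

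**Figure D5:**
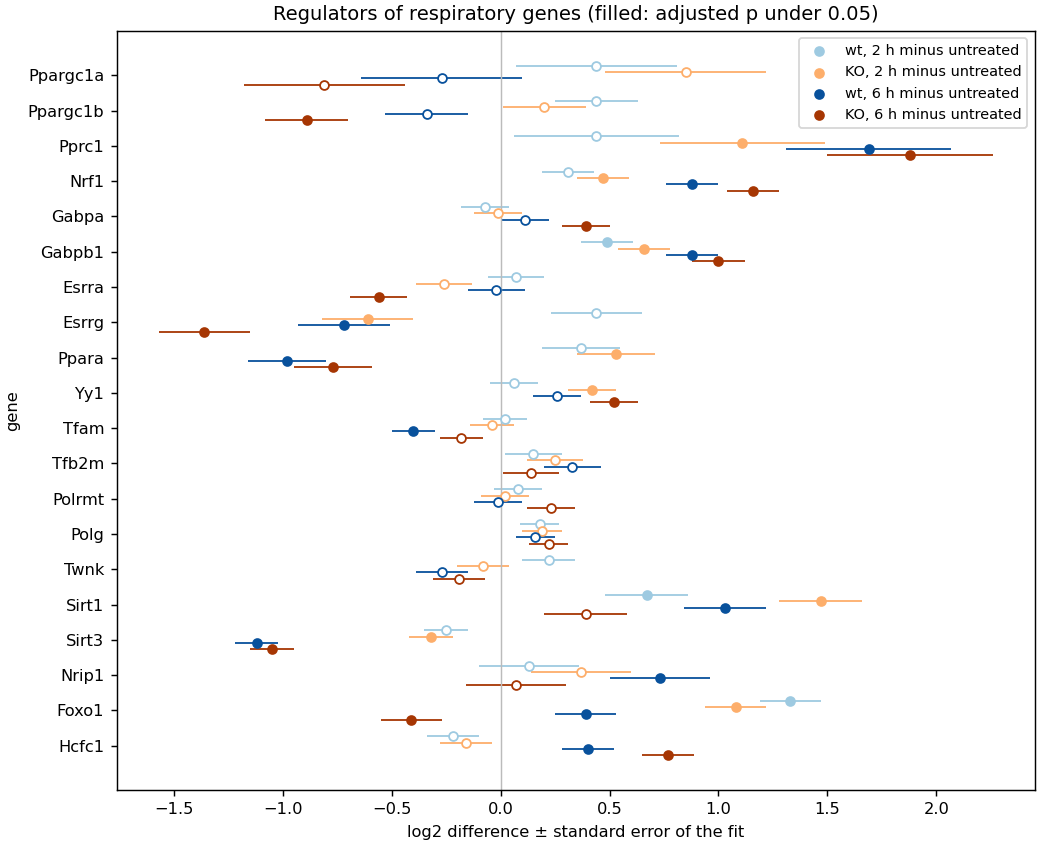
Log2 difference from the untreated group of the same genotype, with its standard error, for 20 regulators of respiratory genes in the 4 responses (filled points have an adjusted p under 0.05). Nrf1, Gabpb1 and Pprc1 lie to the right of 0 at 6 h, at 0.88 to 1.88, and Sirt3, Esrrg and Ppara to the left, at -0.72 to -1.36.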

How the data were processed

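Total RNA of 12 liver samples was measured on Affymetrix Mouse Gene 1.1 ST arrays. The deposited values are intensities on a linear scale, normalized by the authors with Affymetrix Expression Console and RMA, per the submitters' processing notes, and the median intensity of an array was 79.9 to 90.1. Their log2 was taken here. Of 35556 probe sets, 21218 carried a single gene symbol in the platform annotation (18820 genes). Each gene was represented by its brightest probe set if its mean log2 was at least 5, which left 17052 genes. The 13 subunits encoded in mitochondrial DNA had no such probe set and were not analysed here.

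The 6 group means were fitted with lmFit and eBayes (limma 3.58.1, R 4.3.3; 6 residual and 4.33 prior degrees of freedom), 11 comparisons were taken from this fit, and p-values were adjusted by the Benjamini-Hochberg method over all 17052 genes in each comparison. The fit was tested on simulated data. With 2 arrays per group, their number limits the precision. Whether same-numbered replicates share more than a number is not known. Over all tested genes, the correlations of their deviations from group means ran from -0.134 to 0.185 in 15 pairs of groups. Of these, 4 were over 0.1, and they cannot decide it for the members. Replicate 1 was below replicate 2 for 43 and 13 of the 88 members in untreated wt and KO. At 2 h this held for 60 and 68 and at 6 h for 73 and 81, against 48.1% to 56.8% of all genes in the 6 groups. Alternatives were quantile normalization, no filter on low values or a minimum of 7, averaging the probe sets of each gene, only the groups compared, the replicate number as a block, and each array left out in turn. Values on every array were given for up to 3 members per complex with the smallest p in each response, for the leading members of the other comparisons, the isoform pairs and complex II, and a selection of these is printed. From each pathway list up to 4 genes with the smallest p per comparison could be named, and Cs, Cycs, Cox19, Ppargc1a, Slc25a3, Slc25a5, Sod2, Vdac1, Coq10b and the ribosomal protein genes were added after their values were seen. Members and lists were chosen with earlier results of these data known.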

Additional observations from a re-analysis of the deposited data

How the results depend on the processing

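With each array left out in turn, the number of members called lower ranged from 27 to 61 in wt at 6 h, from 22 to 56 in KO at 2 h, from 27 to 59 in KO at 6 h and from 0 to 4 in wt at 2 h. The number called higher ranged from 0 to 1 in wt at either time. Between genotypes the numbers called lower ranged from 0 to 23 at 2 h, 0 to 1 at 6 h and 0 to 11 over the 3 conditions, and those called higher at 6 h from 0 to 3. The difference between the responses at 2 h gave 0 to 1 called lower, and 6 h against 2 h gave 11 to 28 lower and 0 to 3 higher. The members lower in KO at 2 h numbered 3 against wt, but 9 with a mean log2 of at least 7, 1 with quantile normalization, 5 with the mean of probe sets, 0 with only the groups compared and 6 with the replicate block. In KO against wt at 6 h the 2 called higher became 1 without a filter, 1 with quantile normalization and 0 with only the groups compared, and the 0 called lower became 1, 2, 1 and 1 without a filter, at a mean log2 of at least 7, with quantile normalization and with the replicate block. The 1 member lower over the 3 conditions became 0 with quantile normalization and 0 with the replicate block. In wt at 2 h the 1 called higher became 2 without a filter and the 3 called lower 5 at a mean log2 of at least 7, and in wt at 6 h the 0 called higher became 1 without a filter. From 2 h to 6 h the 2 called higher became 1 at a mean log2 of at least 7 and 1 with only the groups compared. The cause was not tested, beyond the fewer arrays or other genes in the fit. The other counts of calls stayed within 1.5 times, and no called difference of a named member changed sign. Over 19 settings the members' median ran from -0.14 to -0.09 in wt at 2 h, -0.44 to -0.36 in wt at 6 h, -0.53 to -0.31 in KO at 2 h and -0.53 to -0.34 in KO at 6 h. Between genotypes it ran from -0.38 to -0.16 at 2 h and -0.13 to -0.06 over the 3 conditions, and it changed sign in untreated livers (-0.03 to 0.05) and at 6 h (-0.12 to 0.06). The difference of responses ran from -0.39 to -0.19 at 2 h and changed sign at 6 h (-0.10 to 0.04), and 6 h against 2 h ran from -0.20 to -0.08. Of 114 called differences of named members, 25 lost their call with only the groups compared, 11 under quantile normalization, 5 without a filter and 3 with the replicate block. With 1 array left out, 275 lost it and 1093 kept it.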

Other observations

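Subunits measured only by probe sets that carry a further symbol were not among the 88 members. Uqcrc2, a core protein of complex III, shares a probe set with Pdzd9 and differed by -0.36 in wt at 6 h, -0.17 in KO at 2 h and -0.21 in KO at 6 h. Ndufa13, a subunit of complex I, shares one with Tssk6 and differed by -0.62, -0.59 and -0.60. The 3 probe sets of Cox7c, of complex IV, shared with Gm10012, differed by -0.25 to -0.23 in wt at 6 h and by -0.13 to -0.09 in KO at 6 h.

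Where a member had several probe sets they could differ. Ndufb5 in KO at 6 h gave -0.49 with its bright probe set and 0.09 with a dim one. Uqcrh gave -0.53 and -0.16 in KO at 2 h.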
